A study of Homo sapiens with 56 samples.

Results

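The 8 arrays described here compare a pair of estrogen receptor antagonists in PEO4 cells while estradiol was present in both arms. They were chosen by their titles from 56 Affymetrix arrays of PEO1 and PEO4, established lines of high-grade serous ovarian cancer. In 4 of them the cells received 1 µM 4-hydroxytamoxifen with 1 nM estradiol (4OHT+E2), and in the other 4 they received 1 µM fulvestrant (ICI) with 1 nM estradiol (ICI+E2). Both treatments lasted 3 h and followed 3 days of hormone deprivation in charcoal-stripped serum, which all groups shared. The titles of the 4OHT arrays read Tam, an abbreviation that the series description uses for 4-hydroxytamoxifen. Values from PEO4 cells given 4OHT alone, ICI alone, E2 alone or ethanol vehicle for 3 h, and from PEO1 cells given 4OHT+E2 or ICI+E2, are used beside them, again with 4 arrays per group. The labels do not say whether arrays of a group came from separate cultures, so p-values measure the spread between these arrays, which may be technical.

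Estrogen receptor alpha, encoded by ESR1, is a hormone-activated transcription factor that binds DNA at estrogen response elements and also acts through partners such as AP-1. 4OHT, the active metabolite of tamoxifen, is a nonsteroidal triphenylethylene with a basic side chain and a selective receptor modulator: it blocks transcription at some genes or in some tissues and acts as a partial agonist in others. Fulvestrant is a steroid, an estradiol analogue with a long alkyl sulfinyl side chain, known for blocking the receptor fully and for speeding its breakdown. The comparison asks where these structures gave different transcript levels at matched dose, time and estradiol.

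Levels are log2 values made by robust multi-array averaging (RMA), so 1 unit is a doubling of the hybridisation signal, and levels of different genes are not compared. Differences are 4OHT+E2 minus ICI+E2 in log2 units ± SE from limma, with 4 arrays per group, and a gene was called when its limma adjusted p over 11963 genes was under 0.05. The 8 array medians lay between 7.85 and 7.91. Of 8 markers listed for a serous ovarian line, 7 had mean signals between 10.33 and 13.68 in both groups, ESR1 and PAX8 among them, while SOX17 was at 4.64 with 4OHT+E2 and 4.56 with ICI+E2. Probe sets differ in affinity and the files hold no detection calls, so these signals describe the arrays and do not test the line's identity. None of the 8 and none of the 10 measured markers of other cell types was called, and the mean level of those 10 lay between 6.55 and 6.61 in 4OHT+E2 arrays and between 6.56 and 6.60 in ICI+E2 arrays. In wider lists, none of 8 stromal and none of 8 hepatocyte and neural markers was called by limma, while 1 of 6 leukocyte and endothelial markers was, CD14, which was 0.33 higher with 4OHT+E2, and its part in the results was not tested. The 3' minus 5' signal of ACTB, a measure of RNA integrity, was 0.48, 0.59, 1.07 and 1.74 in 4OHT+E2 arrays 1 to 4, against 0.53, 0.79, 0.70 and 0.48 in ICI+E2 arrays 1 to 4. The arrays that stood highest in the line, ICI replicate 1 at 3.41 and the untreated 0 h replicate 4 at 2.28, are outside the 8 but take part in the estimate of the spread.

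FOSB, NR4A3, RGCC, DUSP4 and IER3 were the 5 genes most raised by 4OHT+E2 over ICI+E2, and F2R was the gene most lowered. In all, 532 genes were called, 4.45% of those tested. Of these, 360 were higher with 4OHT+E2 (3.01% of genes) and 172 were lower (1.44%). The highest calls reached 1.95 ± 0.14, a 3.86-fold difference for FOSB, while the lowest was -0.78 ± 0.08 for F2R. The median difference of all genes was 0.015. Without regard to p, the 4OHT+E2 and ICI+E2 arrays did not overlap for 1968 genes, 16.5% of those tested. With the ACTB difference as a covariate 845 genes were called, among them all 532, and without 4OHT+E2 replicate 4 there were 363 calls, of which 343 were among the 532. Without ICI+E2 replicate 3 the count was 343, and without ICI replicate 1 and 0 h replicate 4 it was 1031. In bulk RNA, more cells that express a gene and more RNA per cell cannot be told apart.

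**Figure D1:**
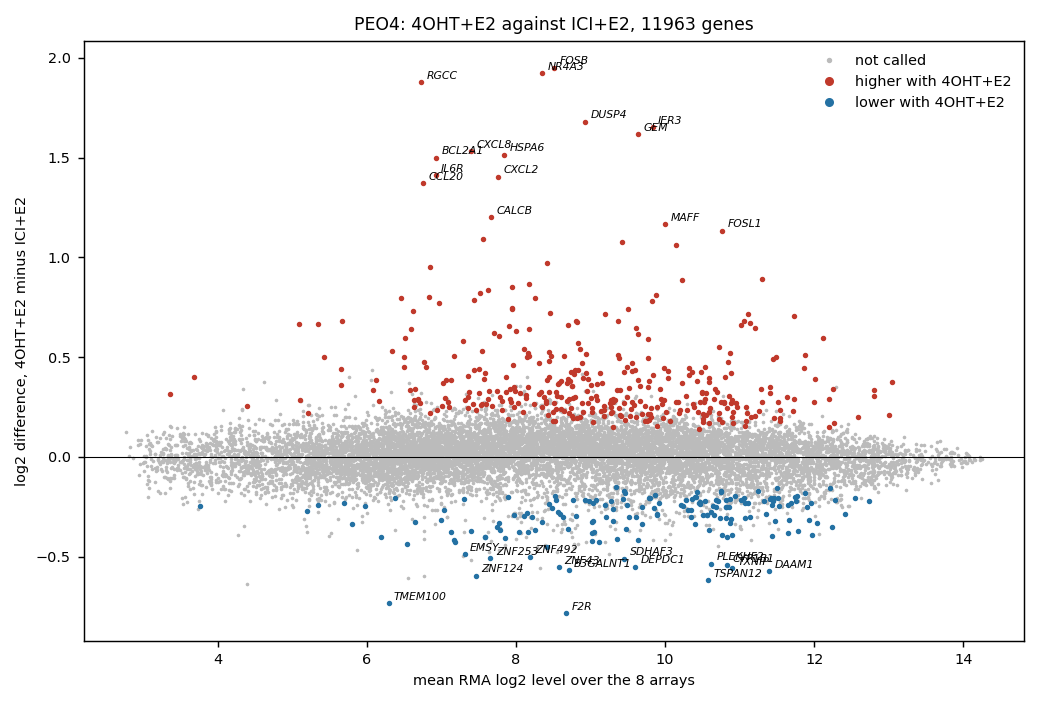
Difference (4OHT+E2 minus ICI+E2, log2, vertical axis) against mean RMA log2 level over the 8 arrays (horizontal axis) for 11963 genes, each point a gene; red points are the 360 genes called higher and blue points the 172 called lower. The named points are the 15 genes of largest change in each direction, and the upward changes extend to 1.95 while the downward ones end at -0.78.

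Immediate early genes are switched on by growth factor and stress signalling without new protein synthesis, and many encode transcription factors. Of 27 measured members, which include other kinds of protein such as the RNA-binding ZFP36, 19 rose and 0 fell with 4OHT+E2, with a median difference of 0.38. For this and each later list, the shares called over all genes were 3.01% higher and 1.44% lower. FOSB, an AP-1 subunit, stood at 9.46, 9.06, 10.02 and 9.41 in 4OHT+E2 arrays, against 7.54, 7.68, 7.47 and 7.47 in ICI+E2 arrays. All 4 levels with 4OHT+E2 lay above all 4 with ICI+E2, and the adjusted p was 1.93e-10. Relative to vehicle FOSB differed by 2.41 with 4OHT+E2 (adjusted p = 1.6e-12) and by 0.46 with ICI+E2 (adjusted p = 0.34).

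NR4A3, an orphan nuclear receptor induced by many signals, had levels of 9.07, 9.29, 9.91 and 8.97 in 4OHT+E2 arrays and of 7.37, 7.38, 7.39 and 7.39 in ICI+E2 arrays. The groups were well apart, by 1.92 ± 0.15 (adjusted p = 1.66e-09). Its other 2 probe sets gave smaller differences, from 0.22 to 0.86, and 1 of them was also called. NR4A2 and NR4A1, its relatives, rose by 0.84 and 0.37.

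FOSL1, an AP-1 subunit of sustained MAP kinase signalling, was measured at 11.25, 11.41, 11.32 and 11.33 in 4OHT+E2 arrays, against 10.41, 10.10, 10.08 and 10.21 in ICI+E2 arrays. IER3, a stress-responsive regulator of cell survival, stood at 10.51, 10.56, 10.91 and 10.66 with 4OHT+E2 and at 9.26, 8.91, 8.78 and 9.07 with ICI+E2. Neither gene's groups overlapped. FOSL1 differed by 1.13 ± 0.12 (adjusted p = 1.26e-07) and IER3 by 1.65 ± 0.10 (adjusted p = 1.67e-11), and with ICI+E2 they lay 0.15 and 0.04 from vehicle.

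EGR1, a zinc finger factor whose promoter is a textbook target of serum response factor, had levels of 9.82, 9.73, 10.35 and 9.95 in 4OHT+E2 arrays, against 8.67, 8.86, 9.08 and 8.94 in ICI+E2 arrays. The lowest 4OHT+E2 level was above the highest ICI+E2 level, and the difference was 1.08 ± 0.10 (adjusted p = 4.46e-08). With ICI+E2 it was 0.40 below vehicle, a difference that was not called (adjusted p = 0.25), and with 4OHT+E2 it was 0.68 above vehicle (adjusted p = 4.3e-05). FOS (0.97), ATF3 (0.87), EGR3 (0.66), KLF6 (0.66), KLF2 (0.61), MYC (0.50), ZFP36 (0.47) and JUNB (0.20) also rose. JUN, the partner of the FOS proteins in AP-1, was not called (-0.12, 95% interval -0.22 to -0.01), nor were FOSL2 (0.041), CCN1 (0.067) and CCN2 (-0.25, interval -0.47 to -0.03).

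The EGR1 promoter is shown because it is the highest-ranked immediate early gene whose window held CArG boxes, the motif of serum response factor. The window runs from 250 bases before to 50 bases after the transcription start (RefSeq, GRCh38.p14, chr5:138465229-138465528, plus strand), and capitals mark the 2 CArG boxes. A CArG box, searched on both strands, was present in 2 of 14 called immediate early genes with a promoter in the table, EGR1 and SRF, and in 1.29% of 35116 promoters. A match describes letters only and is not evidence of binding.
EGR1: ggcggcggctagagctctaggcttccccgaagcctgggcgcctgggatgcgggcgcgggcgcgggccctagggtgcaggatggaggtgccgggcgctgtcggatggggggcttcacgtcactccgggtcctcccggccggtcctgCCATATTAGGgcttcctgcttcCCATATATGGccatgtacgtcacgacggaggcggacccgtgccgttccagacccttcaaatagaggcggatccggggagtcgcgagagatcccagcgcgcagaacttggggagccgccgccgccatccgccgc

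**Figure D2:**
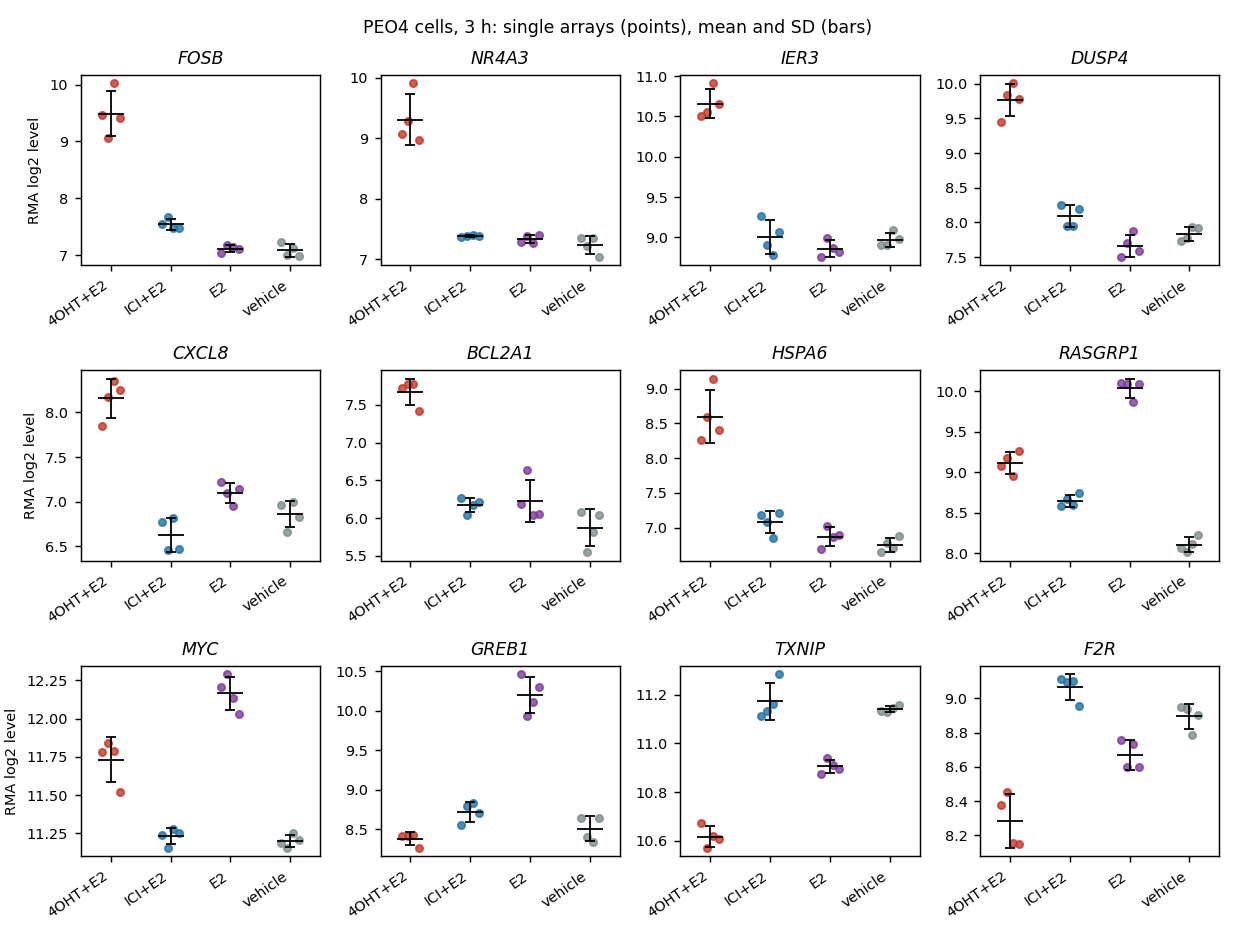
RMA log2 levels of 12 genes in single PEO4 arrays (points, 4 per group) with the group mean and SD (bars), in cells given 4OHT+E2, ICI+E2, E2 or vehicle for 3 h. FOSB, NR4A3, IER3 and DUSP4 stood apart with 4OHT+E2 and lay close together in the other groups, RASGRP1 and MYC with 4OHT+E2 lay between E2 and ICI+E2, and TXNIP and F2R were lowest with 4OHT+E2; each panel has its own axis.

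Genes that MAP kinase signalling induces formed the next group, mostly phosphatases and adaptors that dampen the pathway, together with the ETS factors ETV4 and ETV5 and the receptor EPHA2. Of 16 measured members 10 rose and 0 fell, with a median of 0.28. DUSP4, a nuclear phosphatase of ERK and related kinases, stood at 9.44, 9.83, 10.01 and 9.78 in 4OHT+E2 arrays, against 8.25, 7.95, 7.95 and 8.19 in ICI+E2 arrays. The groups were separate, and the difference was 1.68 ± 0.11 (adjusted p = 2.09e-11). Its other probe set gave 1.27 and was also called.

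DUSP6, the cytoplasmic ERK phosphatase, had levels of 11.63, 11.71, 11.72 and 11.70 with 4OHT+E2 and of 11.22, 11.19, 11.23 and 11.16 with ICI+E2. Here the spread within each group was small beside the difference of 0.49 ± 0.06 (adjusted p = 7.94e-06). DUSP5 (0.67), DUSP2 (0.63), SPRY4 (0.48), PHLDA1 (0.31), DUSP1 (0.29), DUSP7 (0.28), EPHA2 (0.28) and SPRY1 (0.25) rose too. Not called were DUSP8 (0.27, interval 0.05 to 0.49), SPRY2 (0.11, interval -0.02 to 0.25), and the ERK-induced ETS factors ETV5 (0.011) and ETV4 (-0.022), whose intervals reached no higher than 0.16.

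Ligands of the epidermal growth factor receptor family, which feed the same pathway, moved in part. EREG, encoding epiregulin, stood at 10.46, 10.74, 10.92 and 10.58 in 4OHT+E2 arrays and at 9.72, 9.54, 9.62 and 9.58 in ICI+E2 arrays. HBEGF, the heparin-binding ligand, was at 11.72, 11.78, 11.81 and 11.66 with 4OHT+E2, against 10.96, 10.71, 10.79 and 10.93 with ICI+E2. Both genes were higher in every 4OHT+E2 array, by 1.06 ± 0.11 and 0.89 ± 0.08 (adjusted p = 1.11e-07 and 1.09e-08). The receptor ERBB3 fell by 0.20, a call lost in 5 of 16 alternative settings, and the remaining 7 of the 10 measured ligands and receptors were not called.

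RGCC, a p53-induced regulator of the cell cycle kinase CDK1, had levels of 7.58, 7.51, 7.89 and 7.68 in 4OHT+E2 arrays, against 5.70, 6.11, 5.56 and 5.78 in ICI+E2 arrays. GEM, a small GTP-binding protein that inhibits calcium channels, stood at 10.44, 10.37, 10.75 and 10.24 with 4OHT+E2 and at 8.95, 8.71, 8.73 and 8.95 with ICI+E2. For both genes the ranges were more than 1 log2 unit apart. The differences were 1.88 ± 0.11 and 1.62 ± 0.08 (adjusted p = 1.19e-11 and 4.71e-13).

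Targets of NF-kB, a transcription factor of inflammation and survival signalling, and other cytokine genes rose as well: 13 of 22 measured members were called higher and 0 lower, with a median of 0.45. CXCL8, the chemokine interleukin-8, stood at 7.85, 8.17, 8.35 and 8.25 in 4OHT+E2 arrays, against 6.77, 6.46, 6.81 and 6.47 in ICI+E2 arrays. CXCL2, a neutrophil chemokine, was at 8.14, 8.22, 8.81 and 8.68 with 4OHT+E2 and at 6.99, 6.89, 7.16 and 7.19 with ICI+E2. Both were separate between the groups, by 1.53 ± 0.16 (adjusted p = 2.46e-07) and 1.40 ± 0.12 (adjusted p = 6.39e-09). With ICI+E2 they lay 0.24 and 0.19 below vehicle, differences that were not called (adjusted p = 0.78 and 0.73).

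BCL2A1, an anti-apoptotic BCL2 family member, had levels of 7.72, 7.77, 7.78 and 7.41 in 4OHT+E2 arrays and of 6.26, 6.04, 6.18 and 6.22 in ICI+E2 arrays. CCL20, a chemokine for lymphocytes and dendritic cells, was at 7.30, 7.74, 7.27 and 7.44 with 4OHT+E2, against 6.17, 6.08, 6.10 and 5.92 with ICI+E2. Again no levels overlapped, and the differences were 1.50 ± 0.14 and 1.37 ± 0.15 (adjusted p = 2.56e-08 and 4.12e-07). BCL2A1 was the single called member among 12 BCL2 family genes.

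The inhibitors that NF-kB induces against itself rose by smaller amounts. TNFAIP3, the ubiquitin-editing enzyme A20, stood at 11.33, 11.40, 11.59 and 11.56 in 4OHT+E2 arrays, against 10.81, 10.71, 10.70 and 10.79 in ICI+E2 arrays. Its groups were 0.72 ± 0.06 apart without overlap (adjusted p = 7.46e-09), and NFKBIA and NFKBIE, which hold NF-kB in the cytoplasm, rose by 0.55 and 0.39. CXCL1 (0.82), CXCL3 (0.80), PTGS2 (0.68), IL6 (0.66), RELB (0.47) and LIF (0.44) rose, whereas TNF (0.067), IL1B (-0.097), and the subunits NFKB1 (0.097), REL (-0.027) and NFKB2 (0.29, interval 0.05 to 0.52) were not called. CXCL1, CXCL2 and CXCL3 are close in sequence, so their probe sets may share signal.

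Promoters of CXCL2 and TNFAIP3 are shown for their kappaB sites, the motif of NF-kB, and that of CXCL8 for its AP-1 site, the motif of FOS and JUN proteins. Each is the same window of 300 bases from RefSeq (GRCh38.p14): CXCL2 at chr4:74099146-74099445 on the minus strand, TNFAIP3 at chr6:137867009-137867308 and CXCL8 at chr4:73740319-73740618 on the plus strand. Capitals mark kappaB matches in CXCL2, where matches on both strands overlap, and in TNFAIP3, where there are 2, and the AP-1 match in CXCL8. The kappaB letters searched were GGGRNWYYCC, where R is A or G, N any base, W A or T, and Y C or T. Sites that depart from these letters, such as tggaatttcc in CXCL8, were neither marked nor counted. A kappaB match was found on either strand in 7 of the 10 called NF-kB and cytokine genes with a promoter in the table, in 2 of 8 uncalled ones and in 5.91% of all promoters. The list was drawn from known NF-kB targets, whose promoters often hold this motif, so its share is no test of NF-kB action. The AP-1 letters TGANTCA were found in 3 of the 10 matched genes among the 15 highest (CXCL8, HSPA6 and IL6R) and in 7.71% of all promoters. They were in 0 of 14 called immediate early, 0 of 8 called MAPK feedback and 1 of 10 called NF-kB and cytokine genes. The cyclic AMP response element TGACGTCA was in 1 of the 10 matched highest genes (MAFF) and in 1.85% of all promoters. It was in 1 of 14, 2 of 8 and 0 of 10 genes of the same 3 called sets.
CXCL2: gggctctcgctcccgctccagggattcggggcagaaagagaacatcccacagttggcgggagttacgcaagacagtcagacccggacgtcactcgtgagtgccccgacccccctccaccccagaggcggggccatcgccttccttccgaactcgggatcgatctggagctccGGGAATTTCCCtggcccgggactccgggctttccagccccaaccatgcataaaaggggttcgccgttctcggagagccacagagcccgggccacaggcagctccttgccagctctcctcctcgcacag
TNFAIP3: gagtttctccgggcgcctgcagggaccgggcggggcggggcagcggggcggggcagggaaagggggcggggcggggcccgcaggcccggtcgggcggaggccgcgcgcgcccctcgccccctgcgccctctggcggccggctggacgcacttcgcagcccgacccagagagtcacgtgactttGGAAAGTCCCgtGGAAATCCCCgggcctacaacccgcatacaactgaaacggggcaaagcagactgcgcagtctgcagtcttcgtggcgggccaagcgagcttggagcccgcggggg
CXCL8: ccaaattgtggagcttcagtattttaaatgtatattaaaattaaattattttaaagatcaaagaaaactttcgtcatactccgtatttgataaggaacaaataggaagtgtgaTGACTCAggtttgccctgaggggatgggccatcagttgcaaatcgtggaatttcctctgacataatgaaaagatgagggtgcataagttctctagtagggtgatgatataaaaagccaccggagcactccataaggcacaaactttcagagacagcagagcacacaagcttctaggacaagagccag

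The remaining genes among the 15 highest came from several families. HSPA6, a stress-inducible HSP70 chaperone with a near-identical pseudogene that may share its probes, was at 8.26, 8.59, 9.14 and 8.40 with 4OHT+E2, against 7.18, 7.09, 6.86 and 7.21 with ICI+E2. It rose by 1.52 ± 0.14 (adjusted p = 2.44e-08), while the other 8 measured heat shock genes were not called, among them DNAJB1 (0.058) and HSPH1 (-0.014). IL6R, the interleukin-6 receptor, rose by 1.41 ± 0.14, although its other probe set gave 0.09 and was not called. MAFF, a small MAF factor of the stress response, rose by 1.17 ± 0.11, and CALCB, encoding a calcitonin gene-related peptide, by 1.20 ± 0.10.

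CDKN1A, the cyclin-dependent kinase inhibitor p21, had levels of 10.41, 10.57, 10.99 and 10.73 in 4OHT+E2 arrays, against 9.84, 9.71, 9.75 and 9.84 in ICI+E2 arrays. It was higher in every 4OHT+E2 array, by 0.89 ± 0.10 (adjusted p = 1.14e-06). Of 11 measured p53 targets 4 rose and 0 fell, PLK3 (0.50), TNFRSF10B (0.42) and GADD45B (0.24) with it, and MDM2 (0.038) and FAS (-0.057) were not called. In the unfolded protein and integrated stress response 1 of 17 rose, PPP1R15A (0.68), which restores translation by acting on eIF2 alpha, and 1 fell, DDIT4 (-0.24). The calls of GADD45B and DDIT4 were lost in 5 and 6 of 16 alternative settings. DDIT3 gave 0.27 (interval 0.10 to 0.43, adjusted p = 0.058) and ATF4 -0.034. The NRF2 targets TXNRD1 (0.23) and HMOX1 (0.25) rose among 10, HMOX1 losing its call in 5 of 15 settings. Over all genes, 3.01% were called higher and 1.44% lower.

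IGFBP1, an insulin-like growth factor binding protein, was at 8.58, 8.28, 8.41 and 8.23 with 4OHT+E2, against 7.50, 7.79, 7.39 and 7.41 with ICI+E2. BMP2, a bone morphogenetic protein, was at 7.03, 7.25, 7.65 and 7.46 with 4OHT+E2 and at 6.61, 6.52, 6.41 and 6.76 with ICI+E2. Neither overlapped between the groups, and the differences were 0.85 ± 0.12 and 0.77 ± 0.10 (adjusted p = 1.95e-05 and 1.3e-05). In the TGF-beta and BMP list of 17, 5 rose and 2 fell: BMP4 (-0.27) and the inhibitory SMAD6 (-0.30). SNAI2, a repressor of epithelial genes, rose by 0.80 and SNAI1 by 0.29, while the other 7 mesenchymal genes were not called.

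Mitosis was the list with the most downward calls. Of 20 measured members 8 fell and 0 rose, against 1.44% and 3.01% of all genes, with a median of -0.18. TOP2A, the topoisomerase that untangles chromosomes, stood at 11.83, 11.86, 11.72 and 11.66 in 4OHT+E2 arrays, against 12.05, 12.11, 12.08 and 12.09 in ICI+E2 arrays. BUB1, a spindle checkpoint kinase, was at 10.37, 10.39, 10.32 and 10.37 with 4OHT+E2 and at 10.69, 10.68, 10.62 and 10.62 with ICI+E2. The levels did not overlap, but the differences of -0.31 ± 0.07 and -0.29 ± 0.06 were small in size (adjusted p = 0.00661 and 0.00184). The motors KIF11 (-0.31), KIF23 (-0.31) and KIF20A (-0.17) and the kinases TTK (-0.25), NEK2 (-0.23) and BUB1B (-0.22) also fell, while CDK1 (-0.19), CCNB1 (-0.21), MKI67 (-0.067), PLK1 (0.070) and AURKB (0.11) were not called. The count was 6 without 4OHT+E2 replicate 4, 5 without ICI+E2 replicate 3, and 13 without ICI replicate 1 and 0 h replicate 4. Of the 20 G1/S and DNA replication genes 1 fell, TYMS (-0.15), whose call was lost in 7 of 16 settings, among them without ICI+E2 replicate 1, 2, 3 or 4 and without 4OHT+E2 replicate 3 or 4.

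The largest falls were in genes of several kinds. F2R, the thrombin receptor PAR1, stood at 8.38, 8.46, 8.15 and 8.15 in 4OHT+E2 arrays, against 9.11, 9.10, 9.10 and 8.95 in ICI+E2 arrays. TMEM100, a transmembrane protein downstream of BMP signalling in endothelium, was at 5.88, 5.89, 5.96 and 5.95 with 4OHT+E2, against 6.34, 6.79, 6.75 and 6.74 with ICI+E2. Every 4OHT+E2 level was below every ICI+E2 level, and the differences were -0.78 ± 0.08 and -0.73 ± 0.08 (adjusted p = 2.37e-07 and 1.14e-06). ICI+E2 lay 0.17 and -0.01 from vehicle for these genes, neither called.

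TXNIP, an inhibitor of thioredoxin and of glucose uptake, had the tightest replicates of the genes that fell most. It was at 10.67, 10.57, 10.62 and 10.61 in 4OHT+E2 arrays and at 11.12, 11.14, 11.16 and 11.28 in ICI+E2 arrays, a difference of -0.56 ± 0.04 (adjusted p = 2.38e-10). Its other 2 probe sets gave -0.78 and -0.64 and were also called. TSPAN12, a tetraspanin of Norrin and Wnt signalling, fell by 0.62, DAAM1, a formin of the Wnt polarity pathway, by 0.57, and PLEKHF2, an endosomal adaptor, by 0.54 (adjusted p = 0.000115, 1.57e-05 and 7.94e-05).

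Others of the 15 lowest were near the threshold or open to the setting. The zinc finger genes ZNF124 (-0.60), ZNF43 (-0.55), ZNF253 (-0.51) and ZNF492 (-0.50) were called with adjusted p = 0.0376, 0.00589, 0.0472 and 0.0272, and they lost their call in 6 of 15, 0 of 16, 9 of 16 and 4 of 16 alternative settings. ZNF253 was among those lost with the replicate number as a block. B3GALNT1 (-0.57), a glycosyltransferase, DEPDC1 (-0.55), a mitotic protein, and SDHAF3 (-0.51), an assembly factor of succinate dehydrogenase, each lost their call in 4 of 16 alternatives. EMSY, a BRCA2-binding protein, fell by 0.49 ± 0.11 (adjusted p = 0.00919).

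**Figure D3:**
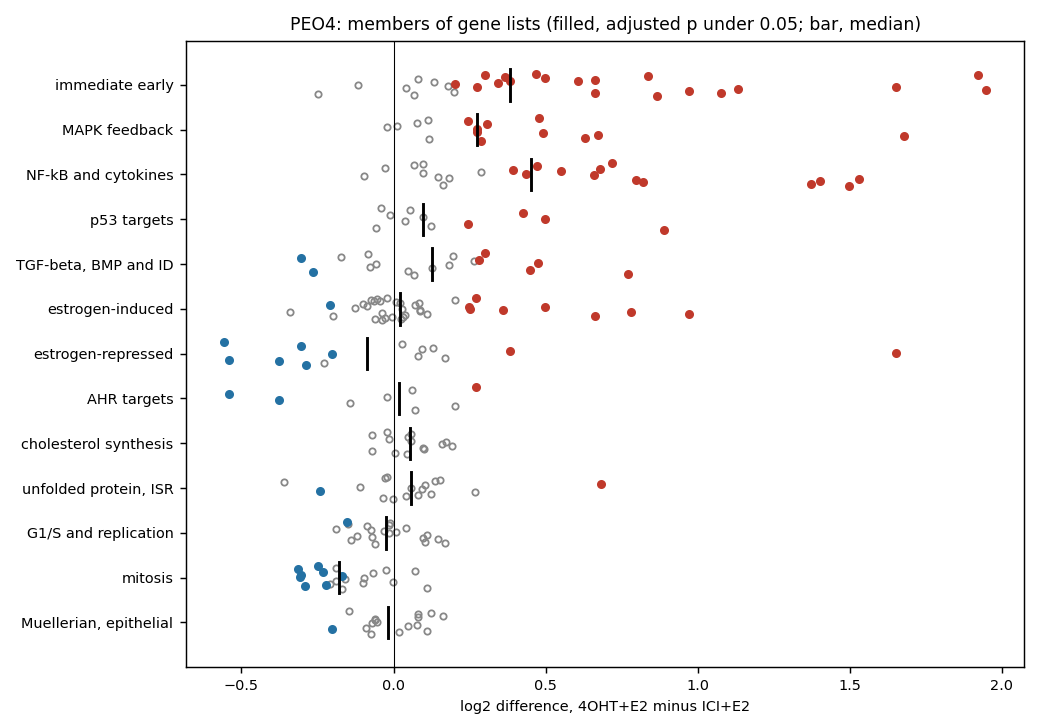
Differences (4OHT+E2 minus ICI+E2, log2, horizontal axis) of the measured members of 13 gene lists, 1 point per gene, filled red where called higher, filled blue where called lower and open where not called; the vertical bar is the list's median. Immediate early, MAPK feedback and NF-kB genes lie to the right with medians of 0.38, 0.28 and 0.45, mitosis lies to the left with -0.18, and cholesterol synthesis holds 0 calls among 14.

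Genes that E2 moved in PEO4 differed between the antagonists in part, and those it raised leaned higher with 4OHT+E2. In PEO4, E2 over vehicle raised 199 genes (1.66%) and lowered 55 (0.46%), with group means from arrays outside the 8. The estimate of each gene's spread was shared with the antagonist comparison and includes the 8 arrays. The 2 sets of calls are therefore not fully independent, and what this adds to the shares below was not tested. Of the 199 raised genes, 53 were higher with 4OHT+E2 than with ICI+E2 (26.6%), 5 were lower (2.51%) and 141 were not called, with a median of 0.11. Of the 55 lowered genes, 7 were higher (12.7%), 12 were lower (21.8%) and 36 were not called, with a median of -0.080. The 53 ranged from 42 to 75 over the alternatives, and the 5 became 2 without ICI+E2 replicate 2 or 4 or 4OHT+E2 replicate 1 or 3, and 12 with array weights. The shares in all genes were 3.01% higher and 1.44% lower. Without regard to p, the difference was above 0 for 151 of the 199 raised genes and below 0 for 36 of the 55 lowered genes. Among all 11963 genes it was above 0 for 6628. The level with 4OHT+E2 was nearer to E2 alone than that with ICI+E2 for 141 of the 199 and 30 of the 55.

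RASGRP1, a Ras-activating exchange factor and the gene that E2 raised most, stood at 9.08, 9.18, 8.95 and 9.27 in 4OHT+E2 arrays, against 8.58, 8.67, 8.59 and 8.75 in ICI+E2 arrays. With E2 alone it was at 10.11, 10.09, 9.86 and 10.09 and with vehicle at 8.06, 8.02, 8.11 and 8.23. Both combinations lay between E2 and vehicle without overlap, and 4OHT+E2 was 0.47 ± 0.09 above ICI+E2 (adjusted p = 0.000709). Without E2, RASGRP1 was at 9.16, 8.96, 8.95 and 8.98 with 4OHT alone and at 8.92, 8.54, 8.49 and 8.52 with ICI alone. The levels with each antagonist alone thus overlapped those of its combination with E2. RASGRP1 was the single gene called for ICI+E2 minus vehicle (0.00836% of genes), by 0.54, whereas 4OHT+E2 minus vehicle called 860 genes (7.19%) and gave 1.01 for RASGRP1.

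MYC, a driver of growth, was at 11.78, 11.84, 11.79 and 11.52 in 4OHT+E2 arrays and at 11.24, 11.16, 11.28 and 11.25 in ICI+E2 arrays, beside 12.20, 12.29, 12.13 and 12.03 with E2 and 11.18, 11.16, 11.25 and 11.20 with vehicle. The ICI+E2 levels overlapped the vehicle levels, and the 4OHT+E2 levels lay above both, by 0.50 ± 0.10 over ICI+E2 (adjusted p = 0.00173). With 4OHT alone MYC was at 11.80, 11.70, 11.71 and 11.71, within the range of 4OHT+E2. With ICI alone it was at 10.54, 11.10, 11.25 and 11.20. KLF4 (0.38), OTUB2 (0.57) and IL12A (0.36), which E2 alone raised by 0.97, 1.01 and 1.01, were likewise higher with 4OHT+E2 than with ICI+E2, IL12A losing its call in 3 of 15 settings.

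GREB1, a receptor coactivator and a standard estrogen target, was not called. Its levels were 8.42, 8.41, 8.43 and 8.27 with 4OHT+E2, against 8.55, 8.80, 8.83 and 8.71 with ICI+E2, 10.46, 9.94, 10.11 and 10.30 with E2, and 8.64, 8.40, 8.34 and 8.65 with vehicle. The antagonist arrays did not overlap each other, yet the difference of -0.34 had a 95% interval of -0.60 to -0.08 and an adjusted p of 0.14. Its other 2 probe sets gave -0.14 and 0.09. It was called with array weights and in only the compared groups, where the lowest adjusted p was 0.0154. DEPTOR, an mTOR inhibitor, gave -0.20 (interval -0.33 to -0.06), KAZN 0.16 (0.04 to 0.29), PLCL2 0.12 (-0.03 to 0.28), CA12, a carbonic anhydrase, 0.023 (-0.10 to 0.15) and OLFML3 0.0022 (-0.14 to 0.15). DEPTOR was called in 4 of 16 settings and KAZN in 2. E2 minus vehicle was between 0.69 and 1.35 for these 5 genes, more than any bound of their intervals.

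Of the genes E2 lowered most, ARID5B, a chromatin regulator of fat cell development, was at 8.74, 8.77, 9.16 and 8.91 with 4OHT+E2, against 8.36, 8.53, 8.62 and 8.51 with ICI+E2, 8.04, 8.23, 8.17 and 8.13 with E2, and 8.74, 8.76, 8.75 and 8.66 with vehicle. DKK1, a secreted Wnt inhibitor, was at 9.94, 10.16, 10.27 and 9.89 with 4OHT+E2, against 9.53, 9.46, 9.49 and 9.40 with ICI+E2, 8.50, 8.44, 8.76 and 8.60 with E2, and 9.13, 9.34, 9.16 and 9.00 with vehicle. Both were higher in every 4OHT+E2 array than in any ICI+E2 array, by 0.39 ± 0.08 and 0.59 ± 0.09, and DKK1 with 4OHT+E2 was above vehicle as well (0.91, adjusted p = 1.1e-07). EFNB2, an ephrin, rose by 0.25, while EPHA4 (-0.12, interval -0.26 to 0.02) and KLF5 (0.15, -0.03 to 0.34) were not called.

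CYP1A1 and CYP1B1, estrogen-metabolising enzymes that the aryl hydrocarbon receptor induces, were lower with 4OHT+E2. Of 8 measured genes in the list for that receptor these 2 fell and 1 rose, TIPARP (0.27), with a median of 0.020. CYP1B1 stood at 10.42, 10.56, 10.54 and 10.72 in 4OHT+E2 arrays, against 11.05, 11.07, 11.13 and 11.16 in ICI+E2 arrays, 10.83, 10.69, 10.93 and 10.92 with E2 and 11.13, 11.46, 11.29 and 11.18 with vehicle. CYP1A1 was at 7.81, 7.84, 7.79 and 7.96 with 4OHT+E2 and at 8.14, 8.21, 8.29 and 8.26 with ICI+E2. Both fell without overlap, by 0.54 and 0.38 on the log2 scale (adjusted p = 2.51e-06 and 0.00717). For CYP1B1 the other 3 probe sets ranged from -0.84 to 0.02.

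**Figure D4:**
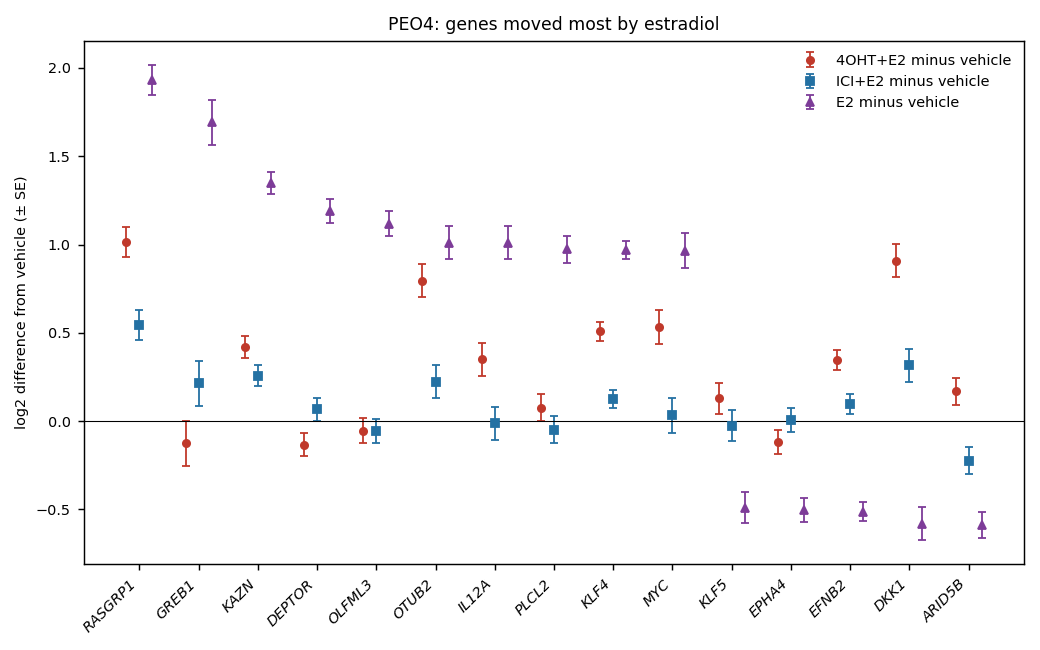
Differences from vehicle (log2, ± SE, vertical axis) for the 10 genes that E2 raised most and the 5 it lowered most in PEO4, for 4OHT+E2 (red circles), ICI+E2 (blue squares) and E2 alone (purple triangles), 4 arrays per group. The 3 differences of a gene share the vehicle arrays; RASGRP1 was at 1.01, 0.54 and 1.93, and DKK1 at 0.91, 0.32 and -0.58.

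In the list of estrogen-induced genes known mostly from breast cells, 8 of 36 rose and 1 fell, with a median of 0.023. The shares of all genes were 3.01% higher and 1.44% lower. Those that rose included FOS, EGR3 and MYC, which are also immediate early genes, HSPB8 (0.78), a small heat shock protein, TIPARP (0.27) and NRIP1 (0.25), a receptor corepressor, while PDZK1 fell by 0.21. E2 over vehicle raised MYC by 0.96 and PDZK1 by 0.25 in PEO4. FOS, EGR3, HSPB8, TIPARP and NRIP1 were not called for E2 over vehicle. In the list of estrogen-repressed genes 2 of 14 rose, IER3 and KLF4, and 6 fell, TXNIP, CYP1B1, CYP1A1, SMAD6, BCL6 and ERBB3. E2 alone raised KLF4 over vehicle by 0.97 in PEO4, and lowered TXNIP by 0.24, CYP1B1 by 0.42 and CYP1A1 by 0.36. IER3, SMAD6, BCL6 and ERBB3 were not called for E2 over vehicle, so the list's name holds for only part of its called members here. Both lists share members with others named here, so their counts are not independent.

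The receptor itself showed a small difference. ESR1 was at 11.50, 11.36, 11.53 and 11.48 in 4OHT+E2 arrays and at 11.55, 11.54, 11.64 and 11.65 in ICI+E2 arrays, which do not overlap but differ by only -0.13 (interval -0.25 to -0.01, adjusted p = 0.22). The transcript says nothing of the receptor protein, which was not measured. PGR, encoding the progesterone receptor, lay between 3.74 and 3.99 with 4OHT+E2 and between 3.78 and 3.81 with ICI+E2 (0.07, interval -0.09 to 0.23). These levels are near the low end of the array values, the lowest of which was 2.18. Whether PGR was detected is not known, so a difference in it may not have been measurable. FOXA1, a pioneer factor of the receptor, rose by 0.60 ± 0.07 (adjusted p = 8.81e-07), GATA3 rose by 0.26 ± 0.05, and the coactivator NCOA2 fell by 0.39 ± 0.07 (adjusted p = 0.000698).

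Other pathways had few calls, beside 3.01% of all genes called higher and 1.44% called lower. In lists this short, 1 or 2 calls are not read as a result about the pathway. None of 14 cholesterol synthesis genes, 7 LXR targets, 8 efflux transporters or 9 homologous recombination genes was called by limma, and the cholesterol genes ranged from -0.071 to 0.19. In the insulin-like growth factor axis 3 of 14 rose, IGFBP1, IRS1 (0.31) and STC1 (0.30), and IGF1R fell by 0.21, while IGFBP3 was not called (0.17, interval 0.03 to 0.31). IGF1R and STC1 lost their calls in 6 of 16 and 4 of 15 settings. Of 11 clock genes BMAL1 (0.43), NFIL3 (0.39) and PER2 (0.24) rose, a count of 3 that became 1 without ICI+E2 replicate 1 or 4OHT+E2 replicate 3 or 4. Of 15 lysosomal and lipid storage genes NPC1 (0.45), which exports cholesterol from lysosomes, and SQSTM1 (0.19) rose. Of 14 ribosome biogenesis genes RRP12 (0.43) and NOP16 (0.28) rose, and single calls were NDRG1 (0.44) in the hypoxia list, MX1 (0.43) among interferon-stimulated genes, F3 (0.43) among YAP targets and CD14 (0.33) among leukocyte and endothelial markers. WNT5A fell by 0.33 and the Müllerian factor EMX2 by 0.20, and the calls of CD14, EMX2 and WNT5A were lost in 5 of 15, 3 of 16 and 1 of 16 settings.

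Of 3 matched comparisons of these antagonists, another was made without estradiol in PEO4, with group means from other arrays. Both PEO4 comparisons used the same estimate of each gene's spread, so their calls are not fully independent. There 279 genes were called for 4OHT minus ICI (2.33%), 150 higher (1.25%) and 129 lower (1.08%). Of the 532 genes called with E2, 148 were called without it, which is 27.8% of the one list and 53% of the other, and all 148 had the same direction. The sign was shared by 470 of the 532 (88.3%), against 48.1% of the genes not called with E2. Without ICI replicate 1 and 0 h replicate 4 these values were 177 shared calls and 94.2% of signs. The 279 calls became 163 without 4OHT replicate 1, 169 without 4OHT replicate 2 and 552 without ICI replicate 4. The split became 214 higher and 338 lower without ICI replicate 4, 1000 and 1367 with array weights, and 206 and 80 with the ACTB covariate.

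GEM gave 1.62 with E2 and 1.61 without, HSPA6 1.52 and 1.52, TXNIP -0.56 and -0.58, and TMEM100 -0.73 and -0.82, all called in both. The sign was shared by 322 of the 360 genes higher with E2 and 148 of the 172 lower. Among the 15 lowest, ZNF253, ZNF43, B3GALNT1, ZNF124, DEPDC1 and SDHAF3 had the opposite sign without E2. Their 4OHT and ICI arrays overlapped, and none was called there. Immediate early genes had 15 calls upward of 27 without E2, MAPK feedback 8 of 16 and NF-kB and cytokine genes 8 of 22, each with 0 downward. Mitosis had 1 downward call of 20, and its median was -0.084.

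The test of the difference itself, the antagonist difference with E2 minus that without, called 1 gene (0.00836% of genes), and 1665 genes had an unadjusted p under 0.05. That gene was CALCB, at 8.16, 8.38, 8.54 and 7.99 with 4OHT+E2, against 7.04, 7.13, 7.08 and 7.02 with ICI+E2, and without E2 at 7.72, 7.42, 7.24 and 7.43 with 4OHT, against 6.94, 7.05, 7.12 and 7.04 with ICI. Both differences ran the same way and the one with E2 was larger, by 0.78 (interval 0.51 to 1.06, adjusted p = 0.0471). The call was lost with the replicate number as a block, with the ACTB covariate, and without ICI replicate 1 and 0 h replicate 4. For NR4A3 the 2 differences were 1.92 and 0.79, and for F2R -0.78 and -0.18, with adjusted p = 0.074 for each gene's change.

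In PEO1, at the same doses and time, 4OHT+E2 minus ICI+E2 called 501 genes (4.19%), 185 higher (1.55%) and 316 lower (2.64%). With quantile normalization the split was 256 higher and 172 lower. Leaving out single arrays gave 267, 330 and 220 calls without ICI+E2 A, B and C, and 253, 1042 and 312 without 4OHT+E2 B, C and D. Of the 532 PEO4 calls 135 were also called in PEO1, 24.8% of the PEO4 list and 26.3% of the PEO1 list, 132 in the same direction and 3 in the opposite one. The sign was shared by 84.4% of the 532, against 55.2% of the other genes. In PEO1 13 immediate early genes rose and 1 fell, 4 MAPK feedback genes and 11 NF-kB and cytokine genes rose, and 10 mitosis genes fell.

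HSPA6 differed by 1.79 in PEO1 and by 1.52 in PEO4, BCL2A1 by 1.41 and 1.50, FOS by 0.89 and 0.97, and FOSB by 1.34 and 1.95, and none of these 4 genes was called in the test between the lines. That test called 123 genes (1.03%), 113 with a higher difference in PEO4 and 10 with a lower one. RGCC (1.44), DUSP4 (1.11), IER3 (1.07), CXCL8 (1.00) and GEM (0.96) exceeded their PEO1 differences by the log2 amounts given, although each was called higher with 4OHT+E2 in PEO1 as well. DUSP6 was 0.49 in PEO4 and -0.02 in PEO1 (interval -0.15 to 0.10), and RASGRP1 0.47 and -0.02 (interval -0.15 to 0.12), with line differences of 0.52 and 0.48 (adjusted p = 0.000347 and 0.0144).

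Opposite calls included GATA3, which was 0.26 in PEO4 and -0.17 in PEO1, and NAB1, a corepressor of EGR proteins, which was -0.24 in PEO4 and 0.30 in PEO1. The line test gave 0.43 and -0.54 for them (adjusted p = 3.88e-05 and 1.68e-05), but NAB1 lost its PEO4 call in 7 of 16 settings (adjusted p up to 0.104), and another of its probe sets gave -1.14 in PEO4. GREB1 was -0.34 in PEO4 and -0.35 in PEO1, where it was called (adjusted p = 0.0309), and the 95% interval of the difference between the lines was -0.32 to 0.34. PTPRO, a receptor phosphatase, rose in PEO1 by 0.57 and gave -0.02 in PEO4 (interval -0.15 to 0.11). With quantile normalization the line test called 72 genes. Leaving out 1 array gave between 59 calls, without PEO4 4OHT+E2 replicate 3, and 226, without PEO1 4OHT+E2 replicate C.

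**Figure D5:**
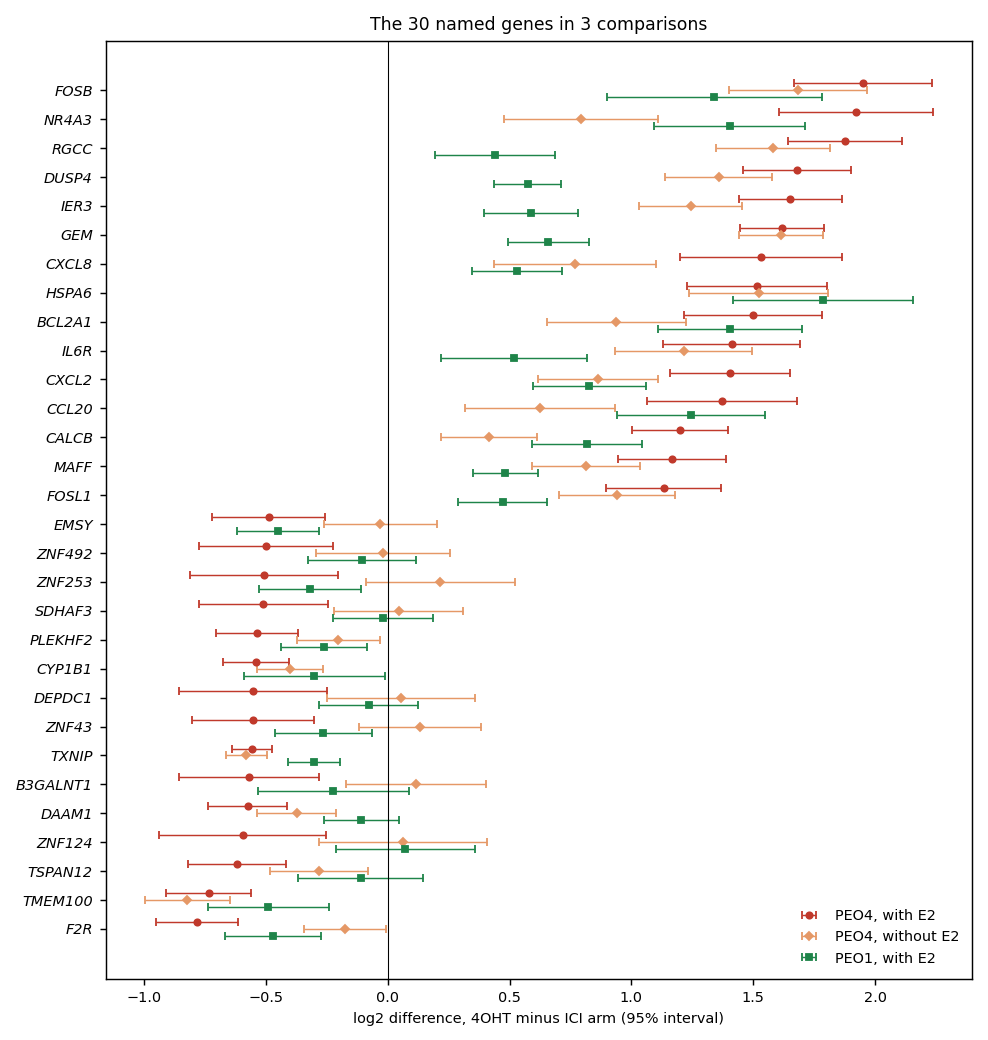
Differences (log2, with 95% interval, horizontal axis) of the 30 genes of largest change, for 4OHT+E2 minus ICI+E2 in PEO4 (red circles), 4OHT minus ICI in PEO4 without E2 (orange diamonds) and 4OHT+E2 minus ICI+E2 in PEO1 (green squares), 4 arrays per group. The genes were chosen on the first comparison; the 15 upper genes lie right of 0 in all 3, and several of the lower genes, such as ZNF124 and SDHAF3, lie near 0 in the other 2.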

How the data were processed

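Transcript levels were measured on Affymetrix arrays with 22277 probe sets in 56 samples. The values deposited by the authors are on a log2 scale, made by robust multi-array averaging per the submitters' processing notes, whose version is not given in the sources used here. Single values lay between 2.18 and 14.3 and hold no detection calls. Array medians were 7.85 to 7.92 in PEO4 and 7.41 to 7.49 in PEO1, so only differences were compared between lines. After leaving out 62 control probe sets, 19064 probe sets had 1 gene symbol, 1043 had several and 2108 had none. The brightest probe set over the 56 arrays stood for each of 11963 genes, 4310 of which had more than 1.

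limma 3.58.1 in R 4.3.3 was fitted to each line on its own (28 arrays, 7 groups, 21 residual degrees of freedom), and to all 56 arrays for the contrast between lines. P-values were Benjamini-Hochberg adjusted over all genes, with a threshold of 0.05, intervals are 95% from the moderated test, and the procedure was tested on simulated data. The number of arrays limits the precision. No 2 arrays were identical, and the lowest correlation between replicates was 0.9966 in 4OHT+E2 and 0.9984 in ICI+E2.

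Each 4OHT+E2 array deviated most like the ICI+E2 array of its own number (r = 0.33, 0.13, 0.30 and 0.12), a pairing taken from the data. The main fits did not use it, so the SEs, intervals and adjusted p-values of the Results are unpaired. The replicate number entered as a block only among the alternatives. In the PEO4 arrays without E2 and in the PEO1 arrays, the best match was not always the same number or letter. Genes named were the 15 of largest change in each direction, up to 6 called members of each list by adjusted p, the 10 genes E2 raised and 5 it lowered most, the 5 of largest change in each direction in each contrast of differences, and ESR1, PGR, GREB1, RASGRP1, MYC, CA12, CYP1A1, CYP1B1 and IGFBP3. Other list members given as examples were chosen after their values were seen. The comparison and the lists were chosen with earlier results of these data known. Alternatives covered the moderation, dim genes, probe sets, quantile normalization, the replicate number as a block, array weights, the groups fitted, an ACTB covariate and leaving out arrays. Promoters are RefSeq windows on GRCh38.p14, found for 88 of 114 named genes.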

Additional observations from a re-analysis of the deposited data

Results flagged for a closer look

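Among 228 groups of 4 arrays tested with Dixon's criterion, 17 held an array far from the others, and chance gives about 1 in 20 groups. In 4OHT+E2, replicate 3 stood high for EGR3 (6.09), ATF3 (9.03) and IL12A (6.02), and replicate 2 stood high for IGF1R (9.42) and low for SMAD3 (9.69). Replicate 4 of 4OHT+E2 stood low for BCL2A1 (7.41) and GREB1 (8.27). In ICI+E2, replicate 1 stood high for SMAD6 (9.46) and low for TMEM100 (6.34), MX1 (9.71), OLFML3 (7.15) and PLCL2 (7.10). Replicate 4 of ICI+E2 stood high for GATA3 (9.16) and low for F2R (8.95), PHLDA1 (12.60) and KLF5 (11.62), and replicate 2 stood low for PTPRO (12.15).

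CALCB was the gene whose antagonist difference changed with estradiol in limma's test of that change, by 0.78. Between the lines, limma's test of PEO4 minus PEO1 differences called 29 of the named genes. The difference was more positive in PEO4 for RGCC (1.44), DUSP4 (1.11), IER3 (1.07), CXCL8 (1.00), GEM (0.96), IL6R (0.89), MAFF (0.68), IGFBP1 (0.68), FOSL1 (0.66) and CDKN1A (0.59). The same held for PLK3 (0.52), OTUB2 (0.52), DUSP6 (0.52), RASGRP1 (0.48), DUSP2 (0.47), TNFAIP3 (0.47), IL6 (0.47), F3 (0.47), GATA3 (0.43), RRP12 (0.40), IRS1 (0.40), SPRY4 (0.35) and BMAL1 (0.34). It was more negative in PEO4 for PTPRO (-0.59), NAB1 (-0.54), PGLYRP4 (-0.47), DAAM1 (-0.47), CRP (-0.45) and TXNIP (-0.25).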

How the results depend on the processing

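Of the 100 named genes called for 4OHT+E2 minus ICI+E2 in PEO4, 79 were called in every alternative and 21 were lost in at least 1, none reversed, and 7 of 14 uncalled ones were called in at least 1. The 532 calls became 1383 with array weights, 845 with the ACTB covariate, 1031 without ICI 1 and 0 h 4, and 343 to 586 when 1 array was left out. With the replicate number as a block, the paired design, there were 555 calls, of which 502 were shared, and among named genes ZNF253 was lost and CRP gained. Without E2, the 279 calls became 2367 with array weights, 82 in only the compared groups, 298 with the block, and 163 to 552 without 1 array. In PEO1, the 501 calls became 802 with array weights, 89 in only the compared groups, 518 with the block, and 220 to 1042 without 1 array. The 1 call for the change with E2 became 381 with array weights and 0 without dim genes, with every probe set, with the block, in only the compared groups, with the ACTB covariate and without ICI 1 and 0 h 4, and ranged over 0 to 64 without 1 array, the most without ICI 4. Between lines, the 123 calls became 185 without dim genes, 72 with quantile normalization, 547 with array weights, 52 in only the compared groups, 242 with the ACTB covariate, 291 without ICI 1 and 0 h 4, 137 with the block, and 59 to 226 without 1 array. Of genes E2 lowered, 20 in place of 12 were lower with array weights. The causes of these shifts were not tested. The alternatives for counts within gene lists, E2-responsive genes and ZNF genes were chosen after seeing the data.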

Other observations

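Several genes outside the lists were also higher with 4OHT+E2, and they were chosen here after their values were seen. GPR183, a receptor for oxysterols, differed by 1.09 ± 0.14 (limma adjusted p = 7.54e-06) and ARC, an activity-regulated gene, by 0.95 ± 0.10 (adjusted p = 4.69e-07). ANGPTL4, an inhibitor of lipoprotein lipase, differed by 0.80 ± 0.09, and the matrix protease gene MMP3 by 0.79 ± 0.07 (adjusted p = 3.03e-07 and 2.07e-08). THBD differed by 0.74 ± 0.09, TFPI2 by 0.71 ± 0.10 and PLAUR by 0.68 ± 0.07 (adjusted p = 4.52e-06, 1.23e-05 and 1.11e-07).

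Of 235 measured genes whose symbol starts with ZNF, a group noticed among the lowest genes, 1 was higher and 13 were lower with 4OHT+E2 (5.53% lower, against 1.44% of all genes). Their median was -0.032. Without E2 4 were lower (1.7%, against 1.08% of all genes), and in PEO1 7 were lower (2.98%, against 2.64%). The number lower was 21 with the ACTB covariate and 9 without 4OHT+E2 replicate 4, and it ranged from 6 to 33 over the alternatives. Zinc finger paralogs may share probes.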
